A study of Mus musculus with 2 samples.

Results

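The dendritic cells described here were found by their transcripts in 2 single-cell RNA libraries of tumor cells that had been sorted as CD31+CD45-. Members were chosen by their UMI counts (unique molecular identifiers, counted transcripts). A cell was a member if it had at least 1 UMI of the leukocyte gene *Ptprc*, at least 5 UMIs of the MHC class II gene *H2-Eb1* and UMIs of at least 2 of the 6 genes *Flt3*, *Zbtb46*, *Xcr1*, *Clec9a*, *Cd209a* and *Fscn1*. It also had at most 2 UMIs of the macrophage genes *C1qa*, *C1qb* and *C1qc* together and 0 UMIs of the T cell gene *Cd3e* and of the B cell gene *Cd79a*. Among 16123 cells with at least 500 detected genes and at most 10% mitochondrial UMIs, out of 18823 deposited cells, 313 met this rule: 114 of 8021 control cells and 199 of 8102 Dnmt1iECKO cells. The 6 genes, *Ptprc*, *H2-Eb1* and the excluded genes therefore describe the members and are no finding about them.

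The study asked how the loss of the DNA methyltransferase *Dnmt1* in endothelial cells alters tumor vessels. The Dnmt1iECKO mice were labelled Cdh5CreERT2;Dnmt1fl/fl;ZsGreenlsl/lsl, in which Cre under the endothelial *Cdh5* promoter removes the floxed *Dnmt1* alleles after tamoxifen. The control mice are labelled C57BL/6, whereas the methods of the study give Cre and ZsGreen without the floxed alleles. All were female, 8 to 10 weeks old, and carried tumors of YUMMER1.7, a mouse melanoma line with many mutations, which the labels place under the skin of the shoulder and the methods place in the lung after tail vein injection. Tumors of several mice were pooled into 1 library per condition, with no replicate. Differences between the libraries therefore have no test, cells are not independent samples, and all intervals cover counting error only.

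Dendritic cells take up antigen, carry it to lymph nodes on MHC molecules and prime T cells. Conventional type 1 dendritic cells (cDC1), which depend on *Batf3* and *Irf8* and carry *Xcr1* and *Clec9a*, cross-present antigen of dead cells to CD8+ T cells. Conventional type 2 dendritic cells (cDC2) are known for the activation of CD4+ T cells, and both types can mature into migratory cells with *Ccr7*, *Fscn1* and *Ccl22*. Plasmacytoid dendritic cells, marked by *Siglech* and *Tcf4*, are known as producers of type I interferon. The Cdh5-driven Cre is aimed at endothelium, and all of these cells express the CD45 gene *Ptprc* that the sort was meant to remove. Each share below therefore depends on how many leukocytes each library held.

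The genes that chose the cells lie, in GRCm38 with GENCODE vM21 models, at chr5:147330741-147400489 (*Flt3*, the receptor of the dendritic cell growth factor *Flt3* ligand), chr2:181387762-181459426 (*Zbtb46*, a transcription factor of conventional dendritic cells that endothelium also expresses), chr9:123852315-123862029 (*Xcr1*, a chemokine receptor), chr6:129408862-129424763 (*Clec9a*, a receptor for dead cells), chr8:3743397-3748984 (*Cd209a*, a C-type lectin), chr5:142960343-142973185 (*Fscn1*, an actin bundler) and chr17:34305867-34316674 (*H2-Eb1*). *Flt3* and *H2-Eb1* each overlap a gene on the opposite strand, and *Clec9a* overlaps *Clec1b*. With all other criteria met, 108, 63, 60, 34, 19 and 1 control cells carried 0, 1, 2, 3, 4 and 5 of the 6 genes, and in the Dnmt1iECKO library the numbers were 364, 121, 80, 88, 30 and 1. On *H2-Eb1* alone, 5 control and 6 Dnmt1iECKO cells failed with 3 or 4 UMIs, and 11 and 5 members lay just inside with 5 to 7 UMIs. On the C1q genes alone, 2 cells of each library failed with 3 to 5 UMIs, and 15 and 34 members had 1 or 2.

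The rule also took in cells with an endothelial profile, and the libraries differed in how many. A group of 43 control and 26 Dnmt1iECKO members, 37.7% (28.8 to 47.3, exact 95% interval) and 13.1% (8.72 to 18.6) of the members, carried UMIs of at least 7 of 10 endothelial genes such as *Cdh5*, *Kdr* and *Cldn5*. Of these, 32 of 43 and 21 of 26 met the rule through *Zbtb46* and *Fscn1* only. Endothelial cells without *Ptprc* carried the same genes, with *Zbtb46* detected in 58.8% and 56.8% and *Fscn1* in 27.0% and 32.1% of 4618 control and 1853 Dnmt1iECKO cells, at a median of 11334 and 11824 UMIs per cell. The endothelial-marker-high members had a median of only 4 and 2 UMIs of *Ptprc* and 18 and 16.5 UMIs of *H2-Eb1*. Another 11 Dnmt1iECKO and 0 control members had UMIs of at least 4 of 8 fibroblast genes such as *Col1a1* and *Dcn*. The data thus go against the label for these 80 cells. A doublet caller marked 16 control and 8 Dnmt1iECKO members, of which 0 and 1 lay outside the 80. The values below are given for the other 71 control and 162 Dnmt1iECKO cells, 233 in all, unless the text says all members. The limits of 7 and 4 genes were chosen after the data had been seen.

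The 233 cells carried markers of dendritic cells that had played no part in the choice. Of 12 such markers the median cell had 8 in either library, and 71 of 71 control and 161 of 162 Dnmt1iECKO cells had at least 3. *Itgax*, the CD11c integrin, was detected in 70.4% and 74.7%, *Irf8* in 67.6% and 74.7%, *Batf3* in 70.4% and 62.3% and the migration receptor *Ccr7* in 52.1% and 57.4% of the control and Dnmt1iECKO cells. In the Ptprc-negative endothelial cells, which should lack them, *Flt3* was detected in 0.108% and 0.054%, *Xcr1* in 0.0217% and 0.054% and *Cd209a* in 0 of 4618 and 0 of 1853 cells. Among the 233 cells these genes were present in 57 and 144 (*Flt3*), 17 and 31 (*Xcr1*) and 19 and 52 cells (*Cd209a*). All of these are genes of the rule, so their presence in the 233 cells follows from the choice and adds nothing to it.

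Transcripts of other cell types were low in the 233 cells but not equal between the libraries. The summed level of 10 endothelial genes was 78.0 and 104 counts per 1000000 UMIs (CPM) in the control and Dnmt1iECKO cells, with none of the 10 genes at 0, compared with 8902 and 7630.2 CPM in the endothelial-marker-high members. The 10 monocyte markers summed to 439 and 1052 CPM, of which *Plac8* gave 232 and 686, and the macrophage markers to 110 and 182. Of the monocyte marker *Ly6c2*, 62.7% of the Dnmt1iECKO UMIs lay in the cells classed below as plasmacytoid-like. B cell, T cell, and NK and innate lymphoid cell lists summed to 88.5, 21.6 and 118 CPM in the control and 174, 41.4 and 242 in the Dnmt1iECKO cells. Alveolar macrophage (583 and 311 CPM, led by *Chil3*) and alveolar epithelial genes (173 and 137) were higher in the control cells. Fibroblast genes stood at 3.87 and 6.82 CPM, neutrophil genes at 2.77 and 20.7, mast cell genes at 0 and 0.470, and platelet and red cell genes at 2.21 and 2.59. Melanoma genes, at 55.9 and 45.9 CPM, came mostly from *Mitf*, which leukocytes also express, with 4 and 3 of the 6 genes at 0. Their part in the differences between libraries was not tested. Of 29 barcodes that both libraries held, 2 belonged to control members. The cells were deep, at a median of 24987 UMIs in the control and 24588 in the Dnmt1iECKO library, against 10421 and 10633.5 over all quality-filtered cells.

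Both libraries held cells with the markers of each main type of dendritic cell. By the number of markers each cell carried, 25 control and 56 Dnmt1iECKO cells were cDC2-like (at least 4 of 8 markers), 20 and 40 were mature-like (8 of 12), 16 and 26 were cDC1-like (7 of 10) and 1 and 17 were plasmacytoid-like (6 of 9), while 9 and 23 stayed unassigned. As shares of the 71 and 162 cells these were 35.2% (24.2 to 47.5) and 34.6% (27.3 to 42.4) for cDC2-like cells and 28.2% (18.1 to 40.1) and 24.7% (18.3 to 32.1) for mature-like cells. They were 22.5% (13.5 to 34.0) and 16.0% (10.8 to 22.6) for cDC1-like cells, so the intervals of these 3 classes overlapped between the libraries. The plasmacytoid-like share was 1.41% (0.0357 to 7.60) in the control and 10.5% (6.23 to 16.3) in the Dnmt1iECKO library, and these intervals overlapped at their edges only. The log2 ratio of the plasmacytoid-like share of all members was 3.28 (0.61 to 8.67), and it rested on 1 control cell. It was 0.59 after each cell had been thinned to 2000 UMIs. For the thinned cells the class was that of the list with the highest share of detected markers, in place of the limits above. The change to 0.59 thus mixes depth with a changed definition of the class.

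**Figure D1:**
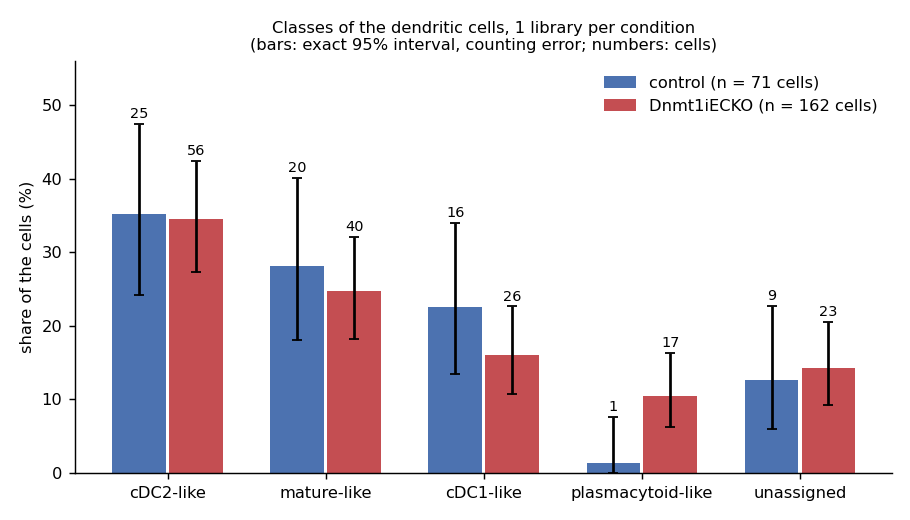
Share of the dendritic cells without an endothelial or fibroblast profile that fell into each class (y axis, percent of 71 control and 162 Dnmt1iECKO cells), with exact 95% intervals of counting error and the number of cells above each bar. The plasmacytoid-like bar is 1.41% in the control and 10.5% in the Dnmt1iECKO library, and the other classes overlap in their intervals.

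The class limits were set after the data had been seen, and a class is a range on a marker count rather than a separate type. At the limit itself stood 7 control and 22 Dnmt1iECKO cDC2-like cells, with 8 and 22 cells 1 marker below it, so the edge of the cDC2-like class was the least sharp. The corresponding numbers were 4 and 3 at, and 2 and 8 below, the limit for mature-like cells, 2 and 6 against 3 and 7 for cDC1-like cells, and 0 and 1 against 2 and 3 for plasmacytoid-like cells. Unsupervised clustering of the 313 members gave 9 clusters. One cluster held 17 cells, all of them plasmacytoid-like, 53 of the 56 cells of another were mature-like and 30 of the 37 cells of yet another were cDC1-like. The cDC2-like cells were spread over 3 clusters, of which they made up 30 of 37, 31 of 34 and 16 of 35 cells.

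**Figure D2:**
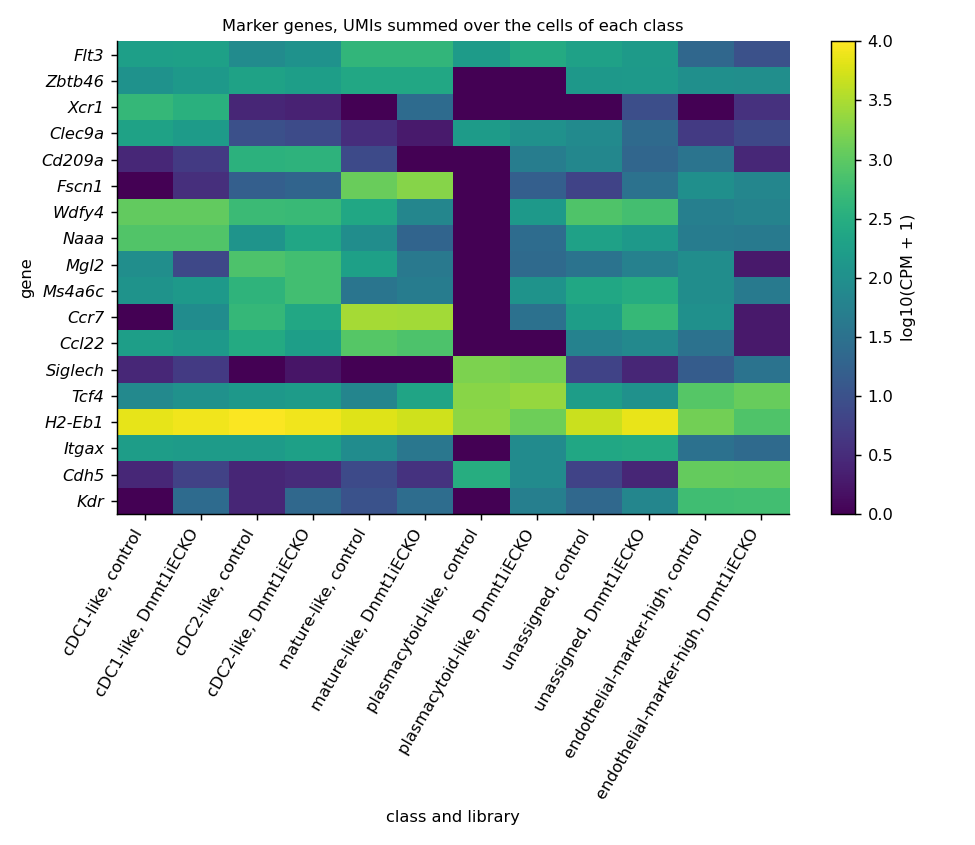
Expression of 18 marker genes (rows) in each class of members and each library (columns), as log10 of CPM plus 1 on the color scale. *Xcr1*, *Clec9a*, *Wdfy4* and *Naaa* are high in cDC1-like columns, *Cd209a*, *Mgl2* and *Ms4a6c* in cDC2-like columns, *Fscn1*, *Ccr7* and *Ccl22* in mature-like columns, *Siglech* and *Tcf4* in plasmacytoid-like columns, and *Cdh5* and *Kdr* in the endothelial-marker-high columns.

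Genes outside the defining lists set the classes apart as well. The classes were cut from the same cells, so these levels describe them, with no test. In mature-like cells *Ccl5*, a chemokine for T cells, stood at 2807 against 10.2 CPM in control and 1329 against 19.3 CPM in Dnmt1iECKO cells, each against the other dendritic cells. *Il12b*, the IL-12 subunit that drives Th1 responses, stood at 1534 against 35.0 CPM in control and 1385 against 41.5 CPM in Dnmt1iECKO cells. The transcription factor *Tcf7* was almost confined to mature-like cells, at 93.9 against 0 CPM in control and 203 against 0.936 CPM in Dnmt1iECKO cells, and *Anxa3*, *Tmcc3*, *Dpp10*, *Slco5a1*, *Strip2*, *Slc4a8* and *Dscaml1* completed the 10 genes with the highest ratio. Among the costimulation and checkpoint ligands, *Tnfsf4* (OX40 ligand), *Cd70*, *Cd274* (PD-L1), *Pdcd1lg2* (PD-L2) and *Cd200*, which also belongs to the defining list, were at least 2-fold higher than in the other cells in both libraries. That is 5 of 13 genes of the list, against 4.78% of all genes tested. In contrast, 8 of 14 genes of cross-presentation and dead cell uptake were at least 2-fold lower, against 5.51% of all genes.

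Among the genes leading in cDC1-like cells were *Ppt1* and *Rab7b*. *Ppt1*, a lysosomal thioesterase, stood at 687 against 45.4 CPM in control and 914 against 70.8 CPM in Dnmt1iECKO cells, and *Rab7b*, a GTPase of late endosomes, at 539 against 37.3 CPM in control and 512 against 47.1 CPM in Dnmt1iECKO cells. The imprinted transcript *Airn* stood at 284 against 13.8 CPM in control and 217 against 8.38 CPM in Dnmt1iECKO cells, and *Cd36*, *Cd207*, *P3h2*, *Gpr141b*, *Agpat3*, *Itga1* and *Lrrk2* followed. *Clec9a*, *Wdfy4*, *Rab7b*, *Cd36* and the RNA sensor *Tlr3*, 5 of 14 genes of cross-presentation, were at least 2-fold higher in both libraries, against 1.83% of all genes, and *Cybb* and *Mertk* were at least 2-fold lower. *Clec9a*, *Wdfy4* and *Tlr3* had a part in defining the class, and *Clec9a* is also a gene of the rule. Of the MHC class II genes 0 of 14 were at least 2-fold higher and 2 lower (*H2-Eb2* and *H2-DMb2*), and of the class I genes 1 of 14 was higher (*Pdia3*). Of the NF-kB targets, 10 of 19 were at least 2-fold lower, against 5.12% of all genes.

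cDC2-like cells carried interferon-induced and inflammatory transcripts. *Ifitm3*, an interferon-induced antiviral membrane protein, stood at 1422 against 263 CPM in control and 1764 against 393 CPM in Dnmt1iECKO cells. *Wfdc17*, whose protein has a whey acidic protein domain, stood at 192 against 26.2 CPM in control and 356 against 34.9 CPM in Dnmt1iECKO cells. *Tnfsf9*, the ligand of the T cell costimulator 4-1BB, stood at 760.4 against 176 CPM in control and 420.0 against 68.3 CPM in Dnmt1iECKO cells, and *Ms4a6d*, *Emp1*, *Clec4b1*, *Ifitm6*, *Ms4a4c*, *Ifitm1* and *Mefv* followed. Of the 23 targets of type I interferon 9 were at least 2-fold higher than in the other dendritic cells in both libraries (*Ifit1*, *Ifit2*, *Isg15*, *Oasl2*, *Ifi204*, *Ifi27l2a*, *Rtp4*, *Xaf1* and *Slfn5*), against 1.35% of all genes. The same held for *Nfkbia*, *Nfkbiz*, *Ccl3*, *Il1b* and *Tnf*, 5 of 19 NF-kB targets. By the same measure *Csf1r*, also a monocyte marker, was higher and *Flt3*, a gene of the rule, lower among 16 receptor genes. Of 11 chemokine receptors *Ccr1* and *Cx3cr1* were higher, and *Xcr1* and *Ccr7* lower. Of 21 transcription factors *Zeb2* and *Cebpb* were higher, and *Irf8* and *Id2* lower. Of all genes 2.63% were lower. Whether some of these cells derive from monocytes was not tested.

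Plasmacytoid-like cells, with 1 control cell, had less of the presentation machinery. In both libraries 9 of 14 MHC class II genes, 8 of 13 costimulation and checkpoint ligands and 15 of 18 cell cycle genes were at least 2-fold lower than in the other dendritic cells, against 9.54% of all genes. Of 21 transcription factors 4 were at least 2-fold higher (*Bcl11a*, *Tcf4*, *Ikzf1* and *Spib*), against 5.9% of all genes, and 6 at least 2-fold lower (*Zbtb46*, *Batf3*, *Id2*, *Spi1*, *Zfp366* and *Rbpj*). *Tcf4* had a part in defining the class. *Zbtb46* and *H2-Eb1*, which is among the lower MHC class II genes, are genes of the rule. Of 16 growth factor and cytokine receptor genes 3 were higher (*Csf2rb2* and the type I interferon receptor genes *Ifnar1* and *Ifnar2*) and 3 lower (*Csf2ra*, *Kit* and *Ifngr1*). The immunoglobulin light chain transcript *Iglc3* stood at 773 against 0 CPM in control and 372 against 0 CPM in Dnmt1iECKO cells. The rule left out cells with *Cd79a* but not cells with light chain transcripts. The 1 control and 17 Dnmt1iECKO plasmacytoid-like cells held 6 and 33 UMIs of *Cdh5*, of 12 and 44 in the 233 cells. Whether the Cre was active in them was not tested. *Mctp2*, *Prkca*, *Grm8*, *Blnk*, *Cacna1e*, *Tex2*, *Cd8b1*, *Cmah* and *Ablim1* made up the rest of the 10 leading genes.

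Set against C1q-positive macrophages of the same libraries (176 control and 441 Dnmt1iECKO cells with at least 10 C1q UMIs), the genes leading in dendritic cells included *Ccr7*, *Btla* and *Klri1*, which the rule had not used. *Ccr7* stood at 875 against 30.3 CPM in control and 853 against 37.9 CPM in Dnmt1iECKO cells. *Btla*, an inhibitory receptor, stood at 212 against 3.66 CPM in control and 193 against 3.51 CPM in Dnmt1iECKO cells, and *Klri1*, a lectin-like receptor, at 220.2 against 7.31 CPM in control and 242 against 6.89 CPM in Dnmt1iECKO cells. *Serpinb6b*, *Adam23*, *Ccl22*, *Tbc1d4*, *Strip2*, *Ccl17*, *Cldn1*, *P2ry10* and *Itgae* also ranked among the 15 leading genes, beside the rule's own *Fscn1*, *Flt3* and *Cd209a*. Of 11671 genes, 3.36% were at least 2-fold higher and 5.31% at least 2-fold lower in dendritic cells in both libraries. Against B cells (238 and 673 cells with at least 2 UMIs of *Cd79a*) the chemokines *Ccl17*, *Cxcl9*, *Cxcl16*, *Ccl5* and *Ccl22* were among the 15 leading genes, with *Cst3*, a protease inhibitor abundant in dendritic cells, at 13192 against 319.6 CPM in control and 9688 against 277 CPM in Dnmt1iECKO cells. The macrophages held a median of 33744 and 29366 UMIs and the B cells 8120 and 7935.

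Dendritic cells made up more of the Dnmt1iECKO library and less of its cells with *Ptprc*. They were 1.42% (1.17 to 1.70) of quality-filtered control cells and 2.46% (2.13 to 2.82) of Dnmt1iECKO cells, a 1.73-fold difference with a log2 ratio of 0.79 (0.45 to 1.13). Without the endothelial and fibroblast profiles the shares were 0.885% (0.692 to 1.12) and 2.00% (1.71 to 2.33), 2.26-fold, log2 1.18 (0.76 to 1.60). The libraries also differed in *Ptprc*, and whether the sort gate or the tumors set this cannot be told apart. It was carried by 1466 of 8021 control and 4729 of 8102 Dnmt1iECKO cells, which include the endothelial-marker-high members. As a share of those cells dendritic cells were lower in the Dnmt1iECKO library, at 7.78% and 4.21%, or 4.84% and 3.43% without the 80 cells, log2 -0.50 (-0.91 to -0.08). For every 100 C1q-positive macrophages there were 40.3 dendritic cells in the control and 36.7 in the Dnmt1iECKO library, log2 -0.14. The direction thus depended on the denominator, and with cells that carried any *Cdh5* left out the log2 ratio over quality-filtered cells was -0.06.

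**Figure D3:**
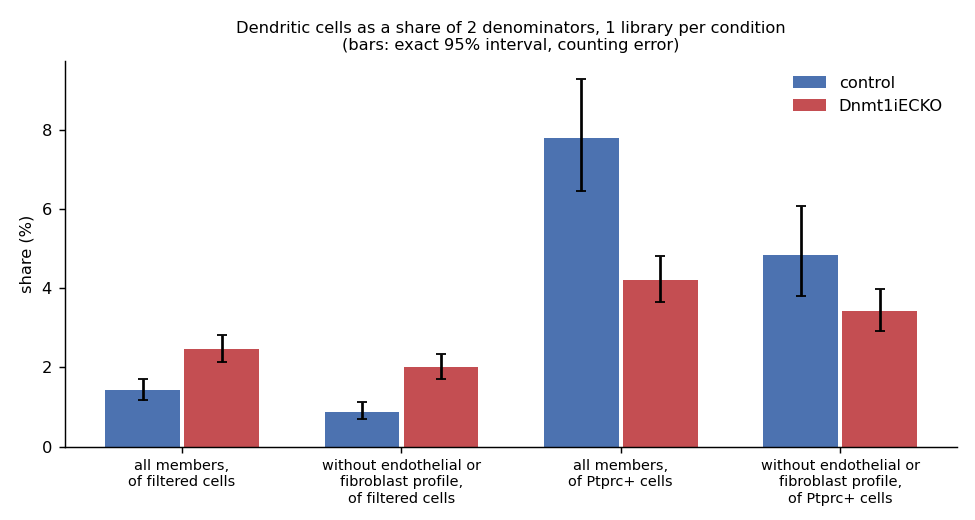
Dendritic cells as a percent (y axis) of quality-filtered cells and of cells with *Ptprc*, for all members and for members without an endothelial or fibroblast profile, with exact 95% intervals of counting error. The Dnmt1iECKO bars are higher over quality-filtered cells (2.46% against 1.42%) and lower over cells with *Ptprc* (4.21% against 7.78%).

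Expression is compared below as the UMIs of a gene summed over the dendritic cells of a library, in CPM of all UMIs of these cells, and the log2 ratio is the Dnmt1iECKO value over the control value with an exact 95% interval. In pairs of values the control comes first. A gene entered the lists' counts with at least 50 UMIs over both libraries together. *Dnmt1* (chr9:20907209-20959888), the gene that the model deletes in endothelium, stood at 64.7 CPM in control and 49.2 CPM in Dnmt1iECKO cells, a log2 ratio of -0.40 (-0.73 to -0.06), with UMIs in 37 of 71 and 73 of 162 cells. Without the cell with the most *Dnmt1* UMIs in each library the ratio was -0.33 (-0.69 to 0.03). In endothelial cells without *Ptprc* *Dnmt1* stood at 50.03 against 27.2 CPM (-0.88), in macrophages at 39.9 against 41.5 CPM and in B cells at 47.8 against 46.1 CPM. Of 5 genes for DNA methylation enzymes, 3 were higher and 2 lower, with a median of 0.09.

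The dendritic cells of the Dnmt1iECKO library had higher levels of most type I interferon targets than control cells. They had lower levels of cell cycle genes and of the chemokines *Ccl17* and *Ccl5*. MHC class II genes, among them *H2-Eb1* of the rule, had nearly the same level. Over all 8325 genes with the minimum, the median log2 ratio was 0.05. A ratio of at least 2-fold with an interval clear of 0 was met by 3.33% of the genes on the higher side and 1.21% on the lower side, while 56.3% and 43.7% lay on either side of 0. When all 313 members were taken, with their unequal part of endothelial cells, the medians of several lists moved, as given beside them.

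**Figure D4:**
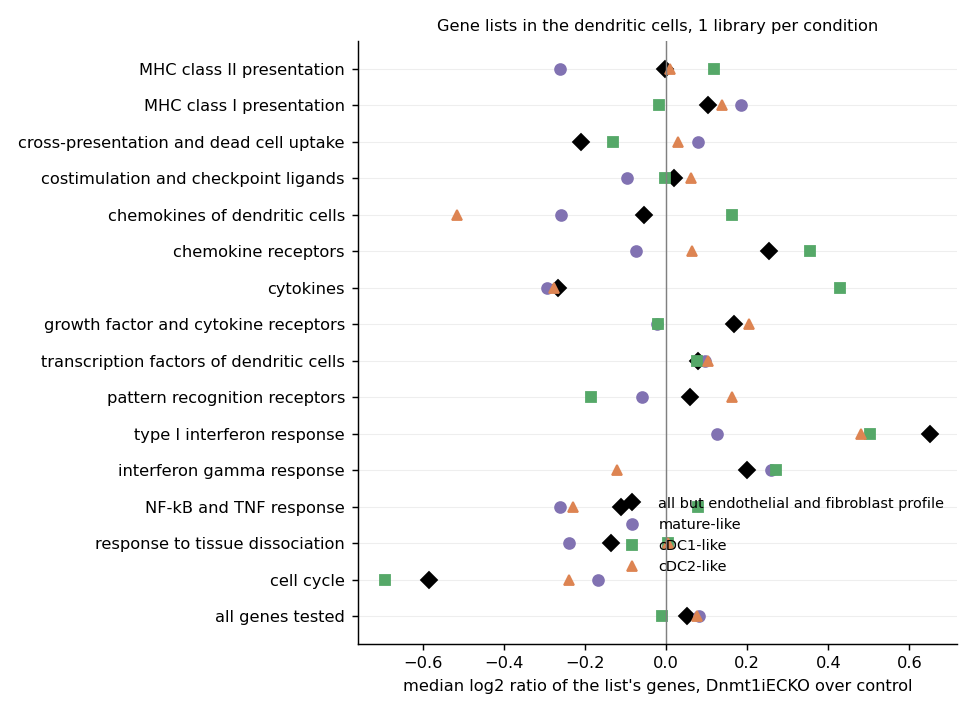
Median log2 ratio of Dnmt1iECKO over control CPM (x axis) of 15 gene lists and of all genes, for the dendritic cells without an endothelial or fibroblast profile and for mature-like, cDC1-like and cDC2-like cells. Type I interferon genes lie right of 0 (0.65) and cell cycle genes left of it (-0.58) in the 233 cells, and MHC class II genes lie at 0.

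Antigen presentation on MHC class II was nearly even between the libraries. Of 14 genes of the list 7 were higher and 7 lower in Dnmt1iECKO cells, with a median of -0.00 and 0 genes beyond 2-fold. The list includes *H2-Eb1*, of which the rule asked at least 5 UMIs in each cell. The comparison therefore covers only cells chosen for a class II transcript. *H2-Aa* (chr17:34282744-34287823), the alpha chain of I-A, was detected in 71 of 71 and 162 of 162 cells. Its lowest, median and highest cell had 481, 8439 and 16774 CPM in the control and 339, 7825 and 19337 CPM in the Dnmt1iECKO library, so single cells of each library covered nearly the whole range of the other. Summed over cells, *H2-Aa* stood at 8467 CPM in control and 7957 CPM in Dnmt1iECKO cells, a log2 ratio of -0.09 (-0.12 to -0.06). *H2-Ab1*, its beta chain, stood at 6918 against 6685 CPM. The classes moved apart, at -0.31 (-0.37 to -0.25) in mature-like, 0.18 (0.13 to 0.23) in cDC1-like and -0.05 (-0.10 to -0.01) in cDC2-like cells for *H2-Aa*. Across the list 10 of 13 genes were lower in mature-like cells (median -0.26), against 42.4% of all genes, and 12 of 13 were higher in cDC1-like cells (median 0.12), against 48.9%. In cDC2-like cells 9 of 14 were higher, against 57.9%, with a median of 0.01.

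*Ciita*, the transactivator that MHC class II transcription requires, was higher in Dnmt1iECKO cells in each class. It stood at 125 CPM in control and 174 CPM in Dnmt1iECKO cells, a log2 ratio of 0.48 (0.27 to 0.70), with 0.63 (0.14 to 1.16), 0.54 (0.10 to 0.98) and 0.50 (0.16 to 0.86) in mature-like, cDC1-like and cDC2-like cells. *H2-Oa*, an inhibitor of peptide loading, was higher in cDC1-like cells, at 52.2 against 107 CPM (log2 1.04, 0.42 to 1.69). Among all 313 members 14 of 14 MHC class II genes were higher in the Dnmt1iECKO library, against 48.6% of all genes, with a median of 0.20, and this direction was not seen once the 80 cells with low *H2-Eb1* and another profile were left out.

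MHC class II promoters are known for a conserved Y box, the site of the factor NF-Y. The letters CTGATTGG were searched on both strands of the 250 bases before the start site in the RefSeq promoters of GRCm38.p6. They were found in 1258 of 32851 windows (3.83%), in 4 of the 10 MHC class II genes that had a window (*H2-Aa*, *H2-Eb1*, *H2-Eb2* and *H2-Oa*), and in 0 of 14 NF-kB targets. The stretches of *H2-Aa* (chr17:34287824-34287924, reverse strand) and *H2-Eb1* (chr17:34305755-34305862, forward strand) are shown because these genes carry the class II result and the rule, with the Y box in capitals.
H2-Aa: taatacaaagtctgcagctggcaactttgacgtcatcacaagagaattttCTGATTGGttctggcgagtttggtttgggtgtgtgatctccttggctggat
H2-Eb1: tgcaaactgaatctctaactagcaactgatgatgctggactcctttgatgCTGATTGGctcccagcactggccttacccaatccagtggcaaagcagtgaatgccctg

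MHC class I genes were close to the level of all genes, with 8 of 14 higher, 6 lower and a median of 0.10. *B2m*, the shared light chain, stood at 2988 CPM in control and 3600.2 CPM in Dnmt1iECKO cells, a log2 ratio of 0.27 (0.22 to 0.31). It was higher in each class, at 0.22, 0.18 and 0.14 in mature-like, cDC1-like and cDC2-like cells. Genes for cross-presentation and dead cell uptake were higher for 5 and lower for 9 of 14, with a median of -0.21, and 1 was at least 2-fold lower. That gene was *Cd36*, a scavenger receptor, at 173 CPM in control and 71.3 CPM in Dnmt1iECKO cells, a log2 ratio of -1.28 (-1.51 to -1.04), and -0.71 without the highest cell of each library. Within cDC1-like cells, which express most of this list, the median was -0.13. There *Clec9a* stood at 198 against 154 CPM (log2 -0.37, -0.75 to 0.02), *Xcr1* at 461 against 348 CPM (log2 -0.41, -0.65 to -0.16) and *Wdfy4*, which cross-presentation requires, at -0.04.

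Costimulatory ligands did not move together, with 7 of 13 higher, 6 lower and a median of 0.02. *Cd86*, a ligand of CD28, stood at 884 CPM in control and 1049.9 CPM in Dnmt1iECKO cells, a log2 ratio of 0.25 (0.16 to 0.33). The PD-1 ligands differed little for *Cd274* (371 against 376 CPM, log2 0.02, -0.11 to 0.15) and were lower for *Pdcd1lg2* (167 against 121 CPM, log2 -0.47, -0.67 to -0.26). *Cd40*, through which T cells license dendritic cells, was lower at 193 against 155 CPM (log2 -0.32, -0.50 to -0.12). The TNF family ligands sustain T cells after priming. *Cd70* stood at 12.7 against 9.88 CPM (log2 -0.37, -1.13 to 0.44), an interval that includes 0. *Tnfsf4* stood at 9.41 CPM in control and 27.3 CPM in Dnmt1iECKO cells, a log2 ratio of 1.54 (0.80 to 2.36), from 17 and 116 UMIs, and in mature-like cells at 27.5 against 90.7 CPM (log2 1.72, 0.85 to 2.73). *Tnfsf9* was lower in each class, at 366 CPM in control and 185 CPM in Dnmt1iECKO cells, a log2 ratio of -0.98 (-1.14 to -0.83). The median cDC2-like cell had 9 UMIs of *Tnfsf9* in the control and 2 in the Dnmt1iECKO library, and both ranges began at 0. Macrophages showed no such gap, with *Tnfsf9* at 179.9 against 168 CPM. *Icosl*, the ligand of ICOS, was higher, at 33.8 against 55.3 CPM over the 233 cells and 32.1 against 112 CPM in mature-like cells (log2 1.80, 1.00 to 2.72).

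Chemokines gave some of the widest differences, in both directions. Of 12 genes 6 were higher and 6 lower, with 2 beyond 2-fold higher (*Ccl2* and *Ccl4*), 3 beyond 2-fold lower (*Ccl17*, *Ccl5* and *Ccl9*) and a median of -0.05. *Ccl17* (chr8:94810453-94812036), which attracts CCR4-bearing T cells, was lower in Dnmt1iECKO cells of each class. It had UMIs in 36 of 71 control and 56 of 162 Dnmt1iECKO cells, with medians of 1 and 0 and highest cells of 392 and 105 UMIs, so the ranges overlapped. Summed, it stood at 848 CPM in control and 310.0 CPM in Dnmt1iECKO cells, a log2 ratio of -1.45 (-1.56 to -1.34). The ratio was -1.57 (-1.77 to -1.37) in mature-like, -2.13 (-2.38 to -1.88) in cDC1-like and -0.74 (-0.91 to -0.57) in cDC2-like cells. A single control cell, of the cDC1-like class, held 25.6% of the control UMIs, and without the highest cell of each library the ratio was -1.16 (-1.28 to -1.05). Without the highest cells of each class the ratios were -1.20 (-1.45 to -0.94), -1.04 (-1.40 to -0.69) and -0.59 (-0.78 to -0.40) in the same order. In macrophages *Ccl17* was lower as well, at 77.2 against 16.2 CPM (log2 -2.25, -2.48 to -2.02). *Ccl22*, a neighbor of *Ccl17* on chromosome 8 (chr8:94745590-94751699) that acts on the same receptor, differed less, at 361 against 279 CPM (log2 -0.37, -0.51 to -0.23).

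*Ccl5* was lower at 686 against 342 CPM (log2 -1.005), and -0.50 without the highest cells, with nearly all of it in mature-like cells. *Cxcl9* (chr5:92321347-92328079), an interferon gamma target that attracts CXCR3-bearing T cells, went opposite ways in the classes. In mature-like cells it stood at 36.6 against 619.8 CPM (log2 4.08, 3.37 to 4.90), with UMIs in 5 of 20 and 16 of 40 cells and highest cells of 7 and 380 UMIs. In cDC1-like cells it stood at 355 against 1048 CPM (log2 1.56, 1.34 to 1.79), with UMIs in 6 of 16 and 14 of 26 cells. In cDC2-like cells it was lower in the Dnmt1iECKO library, at 665 against 176 CPM (log2 -1.91, -2.15 to -1.68), with UMIs in 7 of 25 and 17 of 56 cells. Few cells carried most of the UMIs, and without the highest cell of each library the ratios were 3.52, 3.22 and -1.07. Macrophages had 1024 against 1322 CPM and endothelial cells 47.1 against 116 CPM. *Cxcl10* stood at 144 against 236 CPM, with 72.3% of the control UMIs in 1 cell. Of the Dnmt1iECKO UMIs of *Ccl4* and *Ccl2*, 58.0% lay in plasmacytoid-like and 91.2% in cDC2-like cells. A single cDC2-like cell held 129 of the 251 *Ccl2* UMIs, and 5 of 25 control and 7 of 56 Dnmt1iECKO cDC2-like cells carried the gene. cDC2-like cells held 89.3% of the control UMIs of *Ccl4*. In this class *Ccl4* was lower in the Dnmt1iECKO library, at 117 of 587872 UMIs in the control and 156 of 1411763 in the Dnmt1iECKO cells. The highest cells held 47 and 79 of these *Ccl4* UMIs. Its mean of CPM over cells, a measure other than the summed CPM, was 259 against 83.2.

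**Figure D5:**
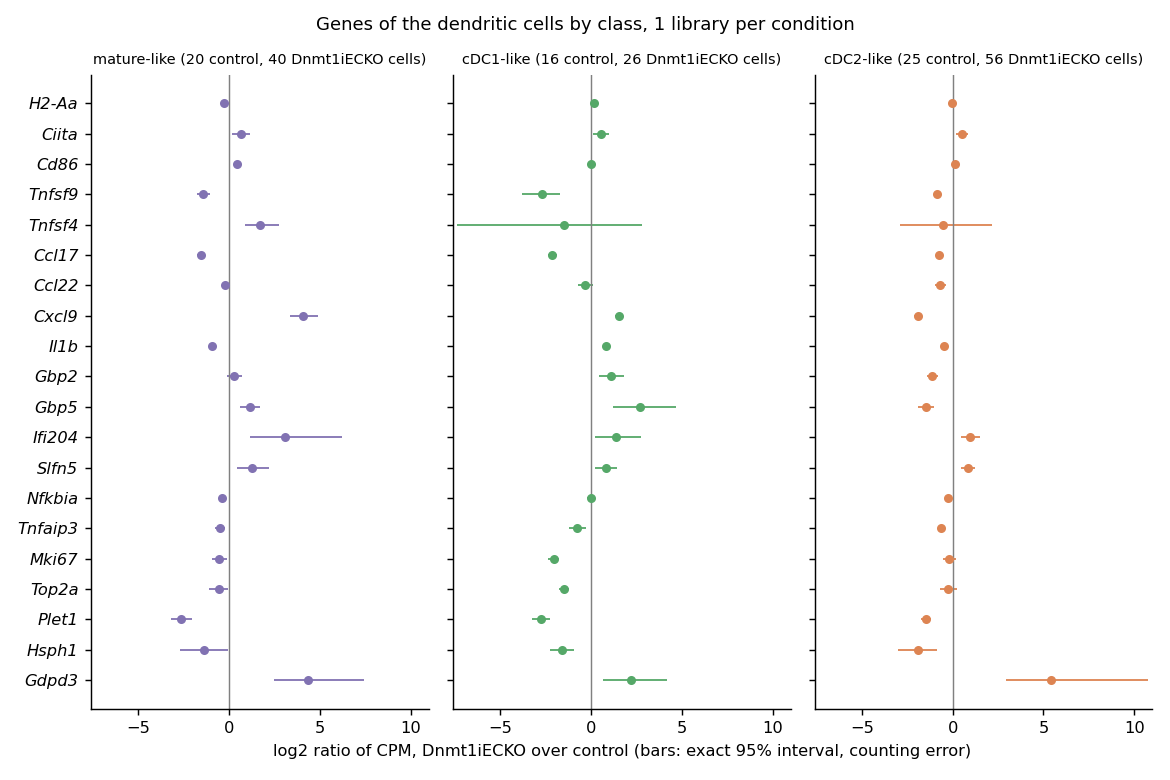
Log2 ratio of Dnmt1iECKO over control CPM (x axis) with the exact 95% interval of counting error for 20 genes (y axis) in mature-like, cDC1-like and cDC2-like cells. *Gdpd3* lies far right and *Plet1*, *Hsph1*, *Ccl17* and *Tnfsf9* lie left of 0 in each panel, and *Cxcl9* lies right of 0 in mature-like and cDC1-like cells (4.08 and 1.56) and left of it in cDC2-like cells (-1.91).

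Chemokine receptors were higher for 6 and lower for 5 of 11 genes, with a median of 0.25, and 1 gene lay beyond 2-fold on either side. *Ccr7*, which guides mature cells to lymph nodes, had an interval that held 0, at 875 against 853 CPM (log2 -0.04, -0.12 to 0.05), or 2933 against 2784 CPM in mature-like cells. *Ccr9* was the receptor beyond 2-fold on the higher side, at 20.5 against 88.2 CPM (log2 2.11, 1.62 to 2.64). Of its Dnmt1iECKO UMIs 93.1% lay in the 17 plasmacytoid-like cells, a class that *Ccr9* helped to define. When each class was given the same weight in both libraries the ratio of *Ccr9* was -0.16. *Xcr1*, a gene of the rule, was the one beyond 2-fold on the lower side (-1.02).

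Of 10 cytokine genes 7 were lower in Dnmt1iECKO cells, against 43.7% of all genes, with a median of -0.27 and none beyond 2-fold. The interval lay below 0 for 3 of the 10 and above 0 for 1. *Il1b*, an inflammatory cytokine, stood at 3148 CPM in control and 2646 CPM in Dnmt1iECKO cells, a log2 ratio of -0.25 (-0.30 to -0.20), and was lower in mature-like (-0.94) and cDC2-like (-0.47) but higher in cDC1-like cells (0.85). *Il1rn*, the inhibitor of the same receptor, was lower at -0.81 (-1.11 to -0.51). *Il12b* in mature-like cells stood at 1534 against 1385 CPM (log2 -0.15, -0.28 to -0.01), and at -0.01 without the highest cells. Of growth factor and cytokine receptors 12 of 16 were higher, with a median of 0.17, among them *Ifnar2* at 136 against 223 CPM (log2 0.71, 0.51 to 0.92). *Ifnar2* was at least 2-fold higher in the 1 control and 17 Dnmt1iECKO plasmacytoid-like cells than in the other cells of their library. Their part in its ratio was not tested. With equal class weights the median of the growth factor and cytokine receptors over all members was 0.00 in place of 0.19.

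Transcription factors of dendritic cells were higher for 12 and lower for 9 of 21 genes, with a median of 0.08. The 1 gene beyond 2-fold was *Tcf4*, the factor of plasmacytoid cells, at 123 against 355 CPM (log2 1.53, 1.33 to 1.74). Of its Dnmt1iECKO UMIs 61.0% lay in plasmacytoid-like cells, a class that *Tcf4* helped to define. Pattern recognition receptors were 6 higher and 5 lower of 11, with a median of 0.06. The 1 gene beyond 2-fold was *Tlr7*, a sensor of single-stranded RNA, and plasmacytoid-like cells held 85.2% of its Dnmt1iECKO UMIs.

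Type I interferon targets had the highest median of the lists. Of 23 genes 19 were higher and 4 lower in Dnmt1iECKO cells, with a median of 0.65, and 7 lay beyond 2-fold higher (*Bst2*, *Ifi204*, *Ifi44*, *Ifit1*, *Irf7*, *Rsad2* and *Xaf1*) and 1 beyond 2-fold lower (*Ifit3*). The median was 0.13 in mature-like cells (6 of 10 higher, against 57.6% of all genes), 0.50 in cDC1-like cells (8 of 10) and 0.48 in cDC2-like cells (16 of 20). Over all 313 members it was -0.03. *Slfn5* (chr11:82951349-82964840), a Schlafen family gene, was detected in 33 of 71 control and 99 of 162 Dnmt1iECKO cells, at medians of 0 and 1 UMI. It stood at 66.4 CPM in control and 123 CPM in Dnmt1iECKO cells, a log2 ratio of 0.89 (0.60 to 1.19), and was higher in each class (1.27, 0.81 and 0.83 in mature-like, cDC1-like and cDC2-like cells). Of the same gene endothelial cells held 984 against 909 CPM, macrophages 138 against 130.0 CPM (log2 -0.089, -0.20 to 0.027) and B cells 328 against 93.0 CPM. *Ifi204*, a DNA sensor, was also higher in each class, at 27.7 against 67.5 CPM (log2 1.29, 0.85 to 1.75) over the 233 cells, and *Xaf1* stood at 17.2 against 47.7 CPM (log2 1.48, 0.93 to 2.07).

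Other genes of the list rested on few cells or on 1 class. *Bst2* (chr8:71534255-71537456), a tetherin that plasmacytoid cells express highly, stood at 245 against 497 CPM (log2 1.02, 0.87 to 1.17). However, 49.0% of its Dnmt1iECKO UMIs were in plasmacytoid-like cells, a class that *Bst2* helped to define. The ratios within mature-like, cDC1-like and cDC2-like cells were 0.07, 0.30 and 0.43. *Isg15* (chr4:156199424-156200818), a ubiquitin-like modifier, stood at 173 against 233 CPM (log2 0.43, 0.24 to 0.61), and at 1.09 without the highest cells, since 1 control cell held 42.5% of the control UMIs. *Irf7*, which drives interferon genes, stood at 32.6 against 71.0 CPM (log2 1.12, 0.71 to 1.55), with 61.0% of the control UMIs in 1 cell. *Ifit3*, the gene beyond 2-fold lower, had 97.1% of its control UMIs in 1 cell, and its copy *Ifit3b* can take some of its reads.

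The interferon-stimulated response element, a promoter element of interferon targets, was searched by its core, GAAA repeated after any 2 bases, on both strands of the same 250-base windows. It was found in 978 of 32851 windows (2.98%), in 13 of the 21 type I interferon genes with a window (61.9%) and 12 of 21 interferon gamma genes (57.1%). The cell cycle and NF-kB lists had it in 0 of 14 genes each and the MHC class II list in 1 of 10, *Ctss*. The stretches of *Slfn5* (chr11:82951897-82952006, forward strand), *Bst2* (chr8:71537537-71537652, reverse strand) and *Isg15* (chr4:156200825-156200946, reverse strand) are shown, with 1, 2 and 3 matches in capitals, those of *Bst2* and *Isg15* overlapping one another. The windows are counted from the RefSeq start site, which for *Slfn5* lies inside the gene model whose coordinates are given above, so its stretch falls within that gene model. A match describes the letters and does not show that a factor was bound.
Slfn5: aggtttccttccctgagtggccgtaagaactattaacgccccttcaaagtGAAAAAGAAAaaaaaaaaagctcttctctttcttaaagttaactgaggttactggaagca
Bst2: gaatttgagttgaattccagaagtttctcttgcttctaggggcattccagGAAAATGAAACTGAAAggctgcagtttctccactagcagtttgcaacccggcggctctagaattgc
Isg15: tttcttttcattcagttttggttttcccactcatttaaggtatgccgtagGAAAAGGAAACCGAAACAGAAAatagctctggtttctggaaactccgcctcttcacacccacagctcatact

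Interferon gamma targets were higher for 17 and lower for 9 of 26 genes, with a median of 0.20 and 2 genes beyond 2-fold, *Iigp1* and the Fc receptor *Fcgr4*. The classes differed, with medians of 0.26 in mature-like, 0.27 in cDC1-like and -0.12 in cDC2-like cells. In mature-like and cDC1-like cells 4 genes each lay beyond 2-fold higher (*Cxcl9*, *Cxcl10* and *Iigp1* in both, with *Gbp5* or *Gbp2*), against 4.49% and 1.82% of all genes, and in cDC2-like cells 1 lay higher (*Fcgr4*) and 3 lower (*Cxcl9*, *Gbp2* and *Gbp5*), against 3.35% and 1.49%. Single cells held most of some of these UMIs. For *Cxcl10*, 1 Dnmt1iECKO cell held 95.6% of the cDC1-like UMIs, and the ratio of 4.56 was 0.90 (-0.90 to 3.02) without the highest cells. In mature-like cells 1 Dnmt1iECKO cell held 84.6% of the *Cxcl10* UMIs and 73.5% of those of *Iigp1*, and without the highest cells the ratios were 0.78 (-0.83 to 2.80) and 2.45 (-0.29 to 7.86), both with intervals that include 0. The guanylate-binding proteins, GTPases of cell defense, showed it. *Gbp5* stood at 80.1 against 177 CPM in mature-like cells, 6.96 against 45.4 CPM in cDC1-like cells and 156 against 57.4 CPM in cDC2-like cells (1.14, 2.71 and -1.45). *Gbp2* was higher in cDC1-like cells (43.5 against 94.6 CPM) and lower in cDC2-like cells (286 against 132 CPM). Without the highest cells the cDC2-like ratios shrank to -0.62 for *Gbp5* and -0.20 for *Gbp2*. By its total UMIs the highest control cDC2-like cell appeared to be the same cell for *Cxcl9*, *Gbp2* and *Gbp5*. The immunity-related GTPase *Iigp1* stood at 21.6 against 58.8 CPM (log2 1.45, 0.95 to 1.97).

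NF-kB and TNF targets were lower for 12 and higher for 7 of 19 genes, with a median of -0.11, 1 gene beyond 2-fold higher (*Ccl4*) and none beyond 2-fold lower. The direction was unsteady: over all members the median was 0.10, and among cells with at least 3 of the 6 rule genes it was 0.07. In cDC2-like cells 15 of 19 (against 42.1% of all genes) and in mature-like cells 12 of 16 genes (against 42.4%) were lower. In cDC1-like cells 9 of 16 were higher, near the 48.9% of all genes, with a median of 0.08. *Tnfaip3*, the feedback inhibitor A20, stood at 378 CPM in control and 285 CPM in Dnmt1iECKO cells, a log2 ratio of -0.41 (-0.54 to -0.27), and was lower in each class. *Nfkbia*, which encodes the inhibitor IkBa, differed less (1497 against 1347 CPM, log2 -0.15, -0.22 to -0.09). Genes that respond to tissue dissociation had a median of -0.14, with 7 higher and 10 lower of 17 and 1 beyond 2-fold lower, *Hsph1*.

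Cell cycle genes were lower in the dendritic cells of the Dnmt1iECKO library. Of 18 genes 17 were lower, 4 of them beyond 2-fold (*Mki67*, *Stmn1*, *Ccna2* and *Cdk1*), with a median of -0.58. *Mki67*, a marker of cycling cells, stood at 288 CPM in control and 131 CPM in Dnmt1iECKO cells, a log2 ratio of -1.13 (-1.31 to -0.96). *Top2a*, which untangles replicated DNA, stood at 242 against 123 CPM, and *Stmn1*, a microtubule regulator, at 172 against 80.4 CPM. The difference was widest in cDC1-like cells, where 14 of 16 genes were lower, against 51.1% of all genes, and 7 beyond 2-fold, against 2.35%, with *Mki67* at 586 against 141 CPM (log2 -2.05, -2.37 to -1.74). In mature-like cells 3 of 6 genes were higher and 3 lower, with a median of -0.17. In cDC2-like cells 3 of 9 were higher and 6 lower, with a median of -0.24, and 2 lay beyond 2-fold higher (*Cenpf* and *Ube2c*, with 3 and 8 control UMIs) and 3 beyond 2-fold lower (*Hist1h1b*, *Mcm3* and *Stmn1*).

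Cells were also counted. In all, 13 of 71 control cells (18.3%, 10.1 to 29.3) and 15 of 162 Dnmt1iECKO cells (9.26%, 5.28 to 14.8) had UMIs of at least 9 of the 18 genes, and the intervals overlapped. Among cDC1-like cells 10 of 16 (62.5%, 35.4 to 84.8) and 5 of 26 (19.2%, 6.55 to 39.4) did, again with overlapping intervals, and these control cells were deeper, at a median of 35314.5 UMIs against 27450.5. After each cell had been thinned to 2000 UMIs, 6 of 16 (37.5%, 15.2 to 64.6) and 5 of 26 (19.2%, 6.55 to 39.4) cDC1-like cells had at least 3 of the genes, and the intervals overlapped. Of cDC2-like cells 2 of 25 and 2 of 56, and of mature-like cells 1 of 20 (5.0%) and 3 of 40 (7.5%), had at least 9 genes.

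Beyond the lists, the genes with the highest and lowest ratios were taken among 3547 genes that differed the same way in mature-like and cDC2-like cells. *Gdpd3* (chr7:126766334-126775649), a lysophospholipase D, was among the highest, and was found in many cells. It had UMIs in 8 of 71 control cells, none with more than 1, and in 87 of 162 Dnmt1iECKO cells, with a highest cell of 15. It stood at 4.43 CPM in control and 67.7 CPM in Dnmt1iECKO cells, a log2 ratio of 3.94 (2.94 to 5.16). The ratio was 4.35 in mature-like, 2.18 in cDC1-like and 5.44 in cDC2-like cells. The gene differed in the same direction in the other cells of the libraries, at 6.20 against 153 CPM in endothelial cells, 9.60 against 148 CPM in macrophages and 2.22 against 129 CPM in B cells, so it did not set the dendritic cells apart. *Gm9967* overlaps it on the opposite strand. *Agbl4*, a carboxypeptidase of tubulin, had 1 UMI in the control and 86 in the Dnmt1iECKO cells (log2 5.19, 2.68 to 10.51), 44.2% of them in plasmacytoid-like cells.

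The other genes with the highest ratios were carried mostly by 1 class or 1 cell. Plasmacytoid-like cells held 71.99%, 95.7%, 62.7% and 85.2% of the Dnmt1iECKO UMIs of *Atp1b1*, *Sla2*, *Ly6c2* and *Tlr7*, mature-like cells held 93.8% of those of *Il23r*, and single cells held 63.8% of *Gdf15*, 85.0% of *Gpnmb* and 56.8% of *Fhit*. On the lower side *Plet1* (chr9:50494525-50505482), a surface protein of epithelia and dendritic cells, stood at 318 CPM in control and 109.6 CPM in Dnmt1iECKO cells, a log2 ratio of -1.54 (-1.72 to -1.36). It was lower in mature-like (-2.63), cDC1-like (-2.74) and cDC2-like cells (-1.45), and in macrophages stood at 65.2 against 39.7 CPM. Among cDC2-like cells with at least 3 of the 6 rule genes its ratio turned to 2.24. *Dcstamp* (chr15:39745930-39760938), a fusion protein of myeloid cells that bears the name of dendritic cells, stood at 194 against 49.6 CPM (log2 -1.96, -2.22 to -1.71).

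*Hsph1*, a heat shock protein, was lower in dendritic cells, at 73.0 CPM in control and 16.7 CPM in Dnmt1iECKO cells, a log2 ratio of -2.13 (-2.57 to -1.70), and in every other cell type compared, with 43.3 against 18.1 CPM in macrophages, 90.5 against 40.3 CPM in B cells and 78.7 against 49.3 CPM in endothelial cells. *Cdon* stood at 28.2 against 3.29 CPM (log2 -3.10, -4.07 to -2.22), *Phlda1* at -1.48 (-1.87 to -1.09), *Chsy3* at -1.98 (-2.47 to -1.49) and the metalloproteinase *Mmp19* at -1.59 (-2.03 to -1.15), with -1.01 for *Mmp19* without the highest cells. *Enah*, *Pelo* and *Frmd5* completed the 10 genes with the lowest ratios. The levels of *Gdpd3* and *Hsph1* moved with the library in all 4 cell types, and with 1 library per condition a difference between library preparations and that between the mice cannot be told apart.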

How the data were processed

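Per the labels and the study's methods, the authors aligned reads of a 10x 3′ kit to mm10 with Cell Ranger 9.0.1 and deposited filtered matrices of UMI counts, which were used as deposited. The libraries held 123830489 (control) and 141433493 (Dnmt1iECKO) UMIs. Cells were filtered and chosen as stated above, and counts of a gene were summed over cells and divided by all UMIs of these cells (CPM). Levels and ratios have exact Poisson intervals and shares exact Clopper-Pearson intervals at 95%. With 1 library per condition no test was run, and a call means at least 2-fold with an interval clear of 0 (between libraries) or in both libraries after adding 10 CPM (between cells). Named genes were those of 17 lists (260 of 263 symbols matched) and, among genes with at least 50 UMIs, the 10 highest and 10 lowest ratios with 1 direction in mature-like and cDC2-like cells, the 10 leading genes of each class and the 15 leading genes against macrophages and B cells, the latter in at least 25% of cells. Genes without a name and mitochondrial and ribosomal protein genes were left out. Of 4 Y-linked genes 0 reached the minimum. Reads of near-identical or overlapping genes (*Ifit3* and *Ifit3b*, *H2-K1* and *H2-D1*) can be misassigned. Doublets were called with scanpy 1.11.5 at an assumed 0.4% per 1000 cells, and clusters came from Leiden clustering at a resolution of 1. The scripts (Python 3.11.15, scipy 1.17.1) were tested on simulated data. The members and gene lists were chosen with earlier results of these data known, and class limits after seeing the data.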

Additional observations from a re-analysis of the deposited data

Results flagged for a closer look

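The interferon gamma targets *Cxcl9*, *Gbp2* and *Gbp5* had log2 ratios of opposite sign in different classes of dendritic cell. *Cxcl9* was higher in Dnmt1iECKO mature-like (4.08) and cDC1-like cells (1.56) and lower in cDC2-like cells (-1.91). *Gbp2* was higher in cDC1-like (1.12) and lower in cDC2-like cells (-1.12), and *Gbp5* was higher in mature-like (1.14) and lower in cDC2-like cells (-1.45). Each interval of counting error lay clear of 0, but the difference between classes was not tested, since each condition had 1 library. Without the highest cell of each library *Gbp2* in cDC2-like cells stood at -0.20. The highest control cDC2-like cell held 226 of 391 UMIs of *Cxcl9*, 99 of 168 of *Gbp2* and 49 of 92 of *Gbp5*. By its total UMIs it appeared to be the same cell for each gene, so the lower cDC2-like values are not separate results.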

How the results depend on the processing

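No paired analysis was possible because each condition had 1 library and no result came from a test. Values are log2 ratios of Dnmt1iECKO over control, and each list's value is its median. Of the results that answer a comparison, 461 stayed within the spread of counting error, 33 moved beyond it and 13 changed sign over all settings. Of single genes 3305 stayed, 637 moved and 4 changed sign.

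The share of dendritic cells (0.79) was -0.065 without cells with any *Cdh5*, 1.18 without the endothelial and fibroblast profiles, -0.89 over cells with *Ptprc*, -0.50 over these cells without the profiles and 1.36 after thinning to 2000 UMIs. The plasmacytoid-like share (3.28) was 0.59 after thinning, where the list with the highest share of detected markers set the class. It could not be computed with at least 3 rule genes or without Cdh5-positive cells, where 0 control cells were left.

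The following are medians over all members, with the value under the rule as used in parentheses at first mention. With at least 1 UMI of *H2-Eb1*, MHC class II genes (0.20) stood at 0.16 and dissociation genes (-0.15) at -0.051, and with at least 10 UMIs MHC class II genes stood at 0.13. With at least 3 rule genes, MHC class II stood at 0.092, cross-presentation (-0.00) at -0.29, chemokines (0.01) at -0.35, dissociation at -0.060 and cell cycle (-0.19) at -0.80. With no C1q UMI, NF-kB targets (0.10) stood at 0.20. With doublets removed, MHC class II stood at 0.066 and dissociation at -0.031. Without Cdh5-positive cells, MHC class II stood at -0.15, cross-presentation at -0.37, chemokines at -0.35, transcription factors (0.11) at -0.040, type I interferon targets (-0.03) at 0.76, interferon gamma targets (0.06) at 0.37, NF-kB targets at -0.092, dissociation at 0.19 and cell cycle at -0.62. Without the endothelial and fibroblast profiles, MHC class II stood at -0.0035, cross-presentation at -0.21, type I interferon targets at 0.65, NF-kB targets at -0.11 and cell cycle at -0.58. With the mean of CPM over cells, NF-kB targets stood at -0.020 and dissociation at -0.25. With classes weighted by their control shares, MHC class II stood at 0.023, chemokines at -0.24, growth factor receptors (0.19) at 0.0049, NF-kB targets at -0.067 and dissociation at 0.10.

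In the 233 cells, chemokines (-0.05) stood at 0.15 with at least 10 UMIs of *H2-Eb1* and at -0.37 with at least 3 rule genes, where interferon gamma targets (0.20) stood at 0.59 and NF-kB targets (-0.11) at 0.074. NF-kB targets stood at -0.021 with no C1q UMI. With the mean of CPM over cells, MHC class II (-0.00) stood at 0.094, NF-kB targets at -0.26 and dissociation (-0.14) at -0.28. Of single genes, *Ccl2* over all members (3.04) was -0.59 and *Plet1* in cDC2-like cells (-1.45) was 2.24 with at least 3 rule genes, and *Ccr9* was -0.012 over all members (1.68) and -0.16 in the 233 cells (2.11) with classes weighted. The causes were not tested, beyond what each setting leaves out.

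With 71 control cells, and 16 in the smallest class compared, single cells hold much of some genes' UMIs (42.5% of those of *Isg15* in 1 control cell). A gene without UMIs in a cell is not shown to be absent there. Intervals do not hold the spread between mice, which 1 library per condition cannot give.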
